A study of Mus musculus with 24 samples.

Results

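Hearts of female mice lacking PPARα were compared with hearts of female wild-type mice. The comparison takes the heart arrays of female knockout (KO) pools 10, 11 and 12 against those of female wild-type (WT) pools 7, 8 and 9, chosen by their titles, which is 6 of the 24 arrays of the series. The series measured livers and hearts of Ppara KO and WT mice of both sexes on Affymetrix mouse arrays, with 8 groups of 3 pools. All animals were SV129 mice of about 10 to 12 weeks, killed at zeitgeber time 14, and the 12 animals of a group were combined into 3 pools, 4 to a pool if divided evenly. WT and KO groups shared strain, age, sex and time of sampling and differed by label in genotype alone. The labels name the allele only as a PPARα knockout and describe no construct, and no label mentions a fast, a diet or a drug. Male hearts, with WT pools 1 to 3 and KO pools 4 to 6, served as a second set of animals. Values are log2 intensities, differences are KO minus WT on the log2 scale, and ± gives the SD over 3 pools. A gene is said to pass where limma gave it an adjusted p under 0.05 (Benjamini-Hochberg). These p-values measure the spread between pools, and the spread between single animals was not measured.

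PPARα is a nuclear receptor with fatty acids among its ligands. Paired with the retinoid X receptor, it raises transcription of genes for fatty acid uptake, storage and oxidation. The adult heart draws most of its energy from fatty acids and also burns glucose, lactate and ketone bodies, so that fuel genes are the receptor's best known targets there. Contraction and excitation depend on other gene families, among them the sarcomere proteins, the calcium stores and the ion channels, and atria and ventricles use partly different members of these families.

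The arrays were alike in signal, with medians between 3.02 and 3.07 over the 6 female arrays. Precision is limited by the small number of arrays. All 12 cardiomyocyte markers lay above the array median in every group, and their summed level ran from 16.27 to 16.29 in WT and from 16.30 to 16.35 in KO pools. Female KO pool 10 stood apart in transcripts of other origin. Alb, the albumin gene, reached 7.94 there against at most 3.40 in the other 5 female hearts, and Serpina1c, another liver gene, 5.08 against at most 2.93. Eif2s3y, a Y-linked gene, was 3.34 in pool 10 and at most 2.50 in the others. Male KO pool 4 went against its sex label with an Xist level of 6.62, where the other male hearts had at most 3.12. Its Eif2s3y level of 4.49 was nevertheless near the 4.64 to 5.67 of male WT hearts and above that of every female heart. Some of the counts and calls that these pools change are also given without them. The Gapdh 3 prime minus 5 prime difference, a measure of RNA integrity, ran from 0.134 to 0.193 in WT and from 0.0834 to 0.122 in KO (exact two-sided permutation p = 0.1, the smallest that 3 pools against 3 allow), and its part in the results was not tested.

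Ppara itself was lower in KO hearts by all 3 of its probe sets. The brightest read 7.65, 7.30 and 7.47 in WT and 6.20, 6.35 and 6.57 in KO pools, so the groups did not overlap. The fall was 1.10 on the log2 scale (95% interval -1.34 to -0.86, limma adjusted p = 8.81e-05), and the other probe sets gave -1.51 and -1.53. The signal that remained in KO pools was well above the array median. The sources used here do not say which probes overlap the deletion, and a probe outside it would not check the genotype.

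In all, 87 of 18193 genes passed in female heart (0.478%), 20 higher (0.11%) and 67 lower (0.368%) in KO, and 25 differed by at least 2-fold. Each of the 87 had its KO pools all on 1 side of its WT pools, as had 12.3% of all genes (5.69% with KO above WT and 6.56% with KO below). At an unadjusted p under 0.05 there were 1294 genes. Without WT pool 7 the count was 57, and without pools 4 and 10 together it was 58. The rises were the less stable group, with 8, 10, 7 and 10 genes without pools 7, 8, 10 and 12 respectively, and 6 without pools 4 and 10.

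Genes for burning and storing fatty acids made up the largest block of falls. Across the carnitine, mitochondrial and peroxisomal lists, 20 of 60 measured genes fell and none rose, against 0.368% of all genes lower, and the median difference of the 60 was -0.16 against -0.01 over all genes. Without pools 4 and 10 it was 17 genes. The strongest fall of the whole comparison, however, was in a storage gene.

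Plin5 encodes perilipin 5, a lipid droplet coat protein of oxidative tissues that tethers droplets to mitochondria. Its level was 7.53, 7.45 and 7.33 in WT and 4.51, 4.44 and 4.24 in KO pools. The gap between the groups was many times the spread within them. The fall was 8.24-fold (-3.04, 95% interval -3.27 to -2.82, limma adjusted p = 3.39e-10), and a second probe set gave -3.17. In the list of triglyceride storage and lipolysis 4 of 26 genes fell and none rose (median -0.16), against 0.368% of all genes lower. The other 3 catalyse steps of glycerolipid synthesis, Gpam the first acylation at -0.93, Agpat2 the second at -0.79 and Dgat2 the last at -0.79. Gpam read 8.63, 8.56 and 8.70 in WT and 7.52, 7.66 and 7.94 in KO, with no overlap. Agpat2 missed the threshold in the fit of the 6 female arrays alone and when pool 7, 9, 11 or 12 was dropped (adjusted p 0.0677 to 0.12 in limma). Cidea and Cidec, which enlarge lipid droplets, were at -0.60 and -0.61 and did not pass.

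Fat cell markers are given beside these storage genes. Of 12 measured adipocyte markers 11 had negative differences (median -0.30), against 51.9% of all genes, and none passed. Adipoq, the adiponectin gene, read 7.63, 7.31 and 7.99 in WT and 6.998, 4.55 and 6.85 in KO pools, lowest in pool 11 (exact two-sided permutation p = 0.1, the smallest possible). The summed level of the list ran from 11.48 to 11.93 in WT and from 11.42 to 11.84 in KO. Its median level was 4.63 to 4.82 in WT and 4.49 to 4.68 in KO, so the sum rests on a few bright members. The list also holds Fabp4, a gene of fat and endothelial cells and its 1 positive member at 0.48. The overlap of the sums thus does not show equal fat cell content. None of 5 measured erythroid markers passed either (limma, median -0.14). The most negative difference was that of Alas2, the heme synthesis gene of erythroid cells, which read 9.15, 9.01 and 9.65 in WT and 8.24, 8.29 and 8.97 in KO (-0.77, limma adjusted p = 0.572). With 0.478% of all genes passing, counts of 0 among 12 adipocyte and 5 erythroid markers do not set either list apart. In such bulk samples fewer cells of a type and less RNA per cell cannot be told apart, and the part of fat cells or blood in the lipid results was not tested. In male hearts the adipocyte list had a median of 0.11 (-0.06 without pool 4), and Plin5 was lower in KO there by 3.09 on the log2 scale.

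The carnitine shuttle, which carries fatty acyl groups into mitochondria, had 5 of 12 measured genes lower and none higher (median -0.30). Slc25a20, the carrier that exchanges acylcarnitine for carnitine across the inner membrane, read 8.79, 8.84 and 8.55 in WT and 6.98, 6.79 and 7.12 in KO. Every KO pool lay below every WT pool, and the fall was 3.39-fold (-1.76, limma adjusted p = 1.24e-07). Cpt2, which returns the acyl group to coenzyme A in the matrix, fell by 1.35. Slc22a5, the carnitine importer of the plasma membrane, and Aldh9a1, an enzyme of carnitine synthesis, fell by 1.04 and 1.03. Mlycd, which destroys malonyl-CoA and so relieves the inhibition of the shuttle, fell by 0.56. It did not pass without pool 8, without pool 11 or without pools 4 and 10. Cpt1b, the muscle form of the shuttle's first enzyme, was not analysed here.

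Within mitochondrial beta-oxidation 10 of 22 genes fell and none rose (median -0.33). Decr1, the dienoyl-CoA reductase needed for unsaturated fatty acids, fell by 1.79, from 9.26, 9.43 and 9.28 to 7.52, 7.46 and 7.62. Acadvl, which starts the cycle on very long chains, and Etfdh, which passes its electrons to ubiquinone, fell by 1.06 and 1.01. Acaa2, a thiolase, was at -0.81, and the trifunctional protein genes Hadha and Hadhb were at -0.75 and -0.58. The remaining 12 genes did not pass and lay between -0.34 and 0.13, though the lowest of them, Hadh, a dehydrogenase of the cycle singled out after its values were seen, had another probe set that passed at -0.42 (limma adjusted p = 0.0432). Peroxisomal and omega oxidation had 5 of 26 genes lower and none higher (median -0.07). Ech1, a dienoyl-CoA isomerase, fell by 1.74, the importer gene Abcd3 by 0.82, the peroxisome division gene Pex11a by 0.82, catalase (Cat) by 0.69 and the bifunctional enzyme gene Hsd17b4 by 0.44. The call of Hsd17b4 was lost without pool 7, 8, 10, 11 or 12, and that of Cat when its probe sets were averaged.

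Uptake and activation of fatty acids changed in both directions. Of 23 measured genes 2 fell and 1 rose (median -0.01), against 0.368% of all genes lower and 0.11% higher. Acot2, a mitochondrial thioesterase that frees fatty acids from coenzyme A, read 6.96, 7.07 and 6.71 in WT and 5.74, 5.78 and 5.98 in KO (-1.08, limma adjusted p = 0.000317). Slc27a1, a fatty acid transport protein, fell by 0.50, a call lost without pool 7, 8, 9, 10 or 11 or male pool 4, among other settings. Acsl6, an acyl-CoA synthetase best known from brain, rose from 3.12, 3.45 and 3.57 to 4.33, 4.05 and 4.26. Its rise of 0.84 (limma adjusted p = 0.017) missed the threshold without pool 7, 8, 10 or 12, and a dimmer probe set of the gene gave -0.03. The probe sets of Cd36, the fatty acid translocase, disagreed. Its brightest was at -0.09 (95% interval -0.30 to 0.13) and another at -0.06, and neither passed, while a bright one with 8.66, 8.87 and 8.82 in WT and 8.35, 8.24 and 8.45 in KO passed at -0.44 (limma adjusted p = 0.0318). Other entry genes did not pass, with Lpl, the lipoprotein lipase, at 0.05 and Fabp3, the heart fatty acid binding protein, at -0.32 (limma adjusted p = 0.171). Fabp4, a binding protein of fat and endothelial cells, was at 0.48 (limma adjusted p = 0.0564).

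**Figure D1:**
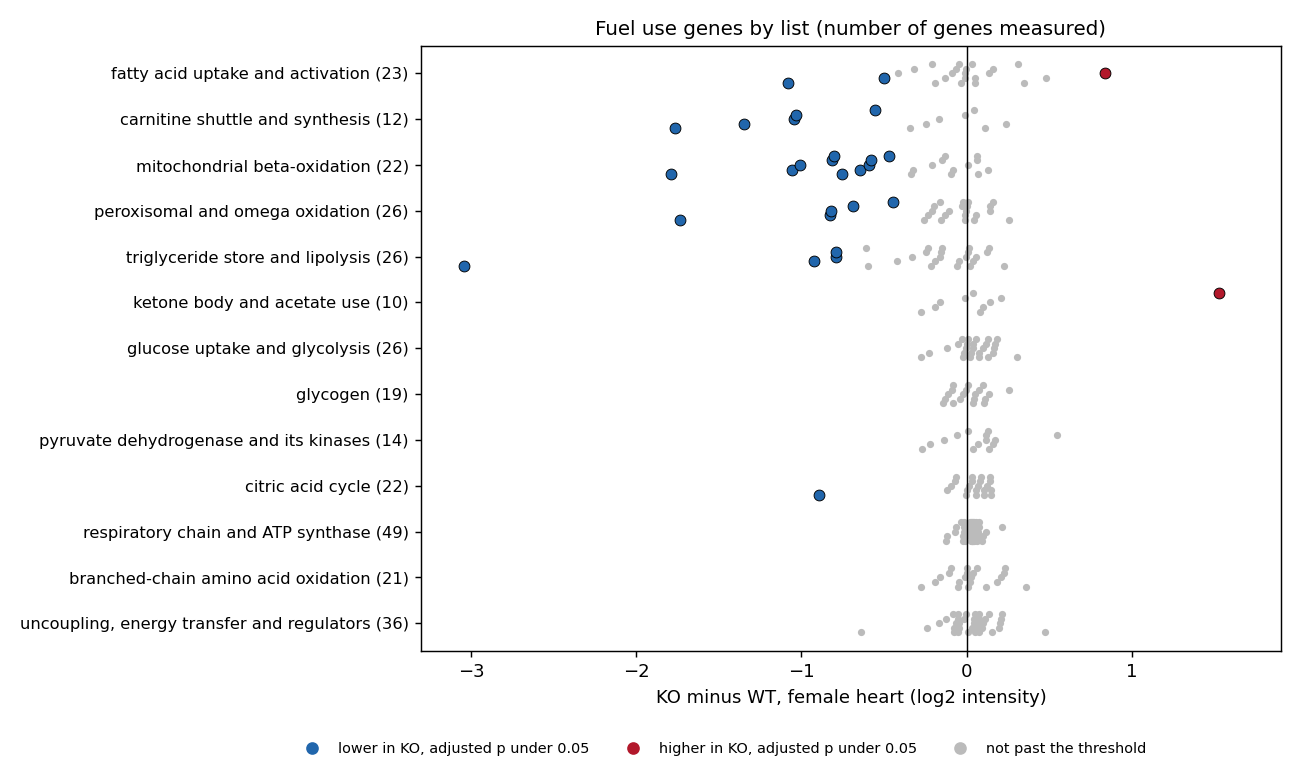
Difference between KO and WT female hearts (log2 intensity, horizontal axis) for every measured gene of 13 fuel use lists (rows, vertical scatter has no meaning), with coloured points for genes past a limma adjusted p of 0.05. The falls lie in the fatty acid lists, reaching -3.04 for Plin5, and in the citric acid cycle list, which holds Me1 at -0.90, while the glucose, glycogen, pyruvate dehydrogenase, respiratory chain and branched-chain lists hold no coloured point.

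Ketone body use held the largest rise of the comparison. Bdh1, the mitochondrial enzyme that interconverts the ketone bodies hydroxybutyrate and acetoacetate, read 6.71, 6.47 and 6.85 in WT and 8.16, 8.25 and 8.19 in KO pools. The 3 KO pools lay close together and more than 1 log2 unit above the WT pools. The rise was 2.88-fold (1.53, 95% interval 1.10 to 1.95, limma adjusted p = 0.0011), and a second probe set gave 1.11. In female hearts it passed under every alternative tried. In male hearts it passed at 1.07 (limma adjusted p = 0.0308) but not without pool 4 (1.05, limma adjusted p = 0.121). The next steps of ketone use did not pass, with Oxct1, which activates acetoacetate, at 0.21 and Acat1, which splits acetoacetyl-CoA, at -0.19. Slc16a1, a carrier of lactate and ketone bodies, was at 0.14. Bdh1 was thus 1 of 10 measured genes of its list to pass, against 0.478% of all genes.

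None of 59 measured genes of glucose uptake and glycolysis, glycogen and pyruvate dehydrogenase passed in limma, under any alternative tried, and their median difference was 0.04. With 0.478% of all genes passing, a count of 0 among 59 does not set these genes apart. Slc2a4, the insulin-regulated glucose transporter, was at 0.08 (95% interval -0.08 to 0.23), and Slc2a1, the other main transporter, at 0.04 (95% interval -0.27 to 0.35). Pdk4, the kinase that shuts off pyruvate oxidation and a known target of the receptor, read 9.72, 9.52 and 9.58 in WT and 9.42, 9.62 and 9.61 in KO. These values overlapped, with a difference of -0.06 (95% interval -0.32 to 0.20). Hk1, a hexokinase, was at 0.31 (limma adjusted p = 0.235) and Pdp1, the phosphatase that reactivates pyruvate dehydrogenase, at 0.55 (limma adjusted p = 0.602).

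Outside these lists, Fbp2, the muscle fructose bisphosphatase, which works against glycolysis, read 5.05, 4.55 and 5.02 in WT and 3.49, 3.46 and 3.47 in KO. Its fall of 1.40 (limma adjusted p = 2.09e-05) ended near the array median of 3.03, so the size of the fall may be understated by the array. Me1, the cytosolic malic enzyme, which makes NADPH, was the 1 call among 22 genes grouped with the citric acid cycle, against 0.478% of all genes. It read 8.85, 8.92 and 8.92 in WT and 8.02, 7.99 and 7.99 in KO (-0.90, limma adjusted p = 1.17e-05). None of 49 respiratory chain and ATP synthase genes and none of 21 genes of branched-chain amino acid oxidation passed, and the respiratory genes stayed between -0.12 and 0.21. With 0.478% of all genes passing, these counts of 0 do not set either list apart. Ucp3, a mitochondrial carrier of the uncoupling family, was at -0.64 (limma adjusted p = 0.0543) and passed in 9 of 24 alternatives.

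**Figure D2:**
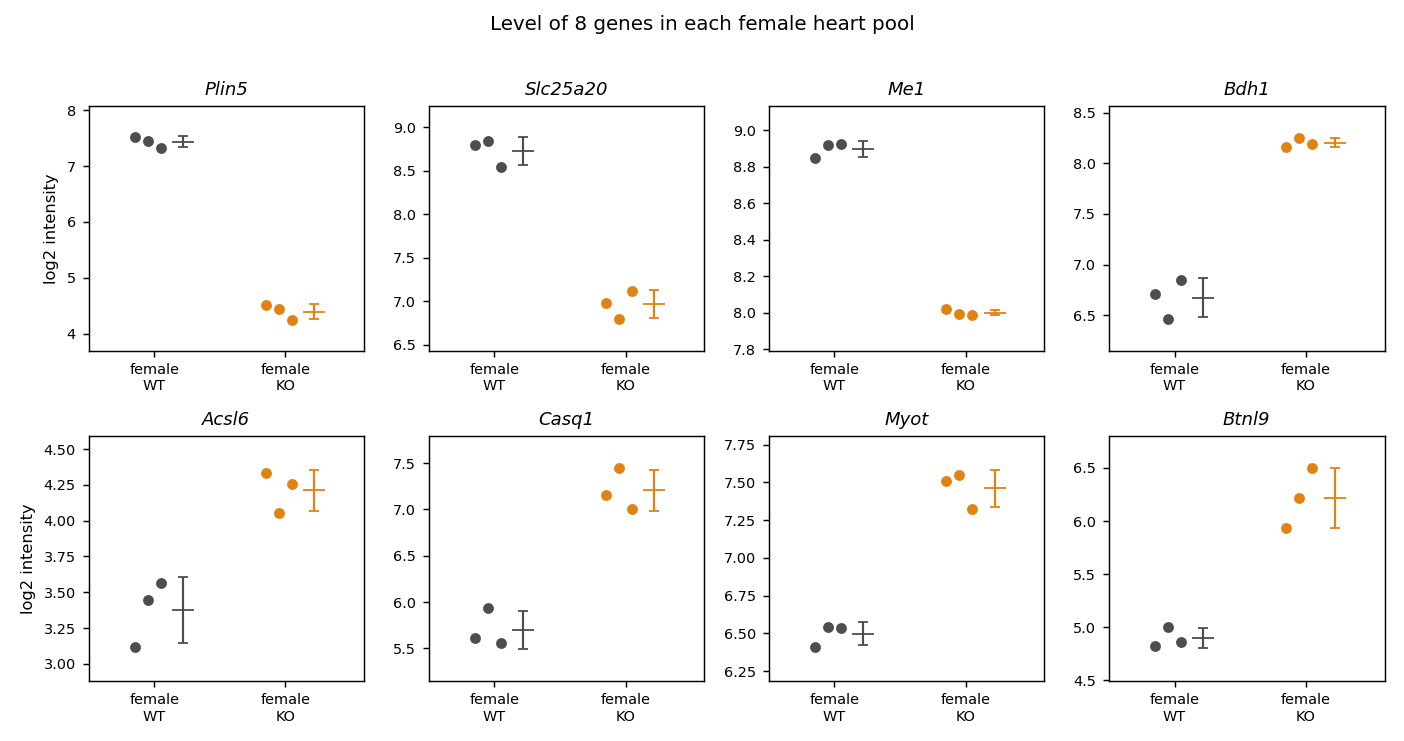
Log2 intensity of 8 genes in each female heart pool (points), with the mean and SD of 3 pools beside them, WT in grey and KO in orange and each panel on its own scale. WT and KO pools do not overlap in any panel, with Plin5, Slc25a20 and Me1 lower and Bdh1, Acsl6, Casq1, Myot and Btnl9 higher in KO.

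Of 83 measured genes of the thick filament, the thin filament and the Z-disc, 1 rose and 3 fell, and the median difference was 0.03. These 4 calls are 4.82% of the contractile genes, against 0.478% of all genes. The main ventricular proteins gave narrow intervals, with Myh6, the adult heavy chain, at 0.04 (95% interval -0.13 to 0.20), Actc1, cardiac actin, at 0.11, Tnni3, cardiac troponin I, at -0.04 and Ttn, titin, at 0.16. Myh7, the slow heavy chain that rises under load, was at -0.10 (95% interval -0.35 to 0.15). Acta1, skeletal actin, read 8.68, 9.39 and 8.77 in WT and 8.19, 8.57 and 7.91 in KO. It did not pass at -0.73 (limma adjusted p = 0.66).

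The Z-disc held a rise and a fall. Myot, which encodes myotilin, an actin-bundling protein of the Z-disc, read 6.41, 6.54 and 6.54 in WT and 7.51, 7.55 and 7.32 in KO. The groups were about 1 log2 unit apart, a rise of 1.95-fold (0.96, limma adjusted p = 3.66e-05). Hspb6, a small heat shock protein of muscle, read 11.45, 11.62 and 11.47 in WT and 10.88, 10.998 and 10.71 in KO (-0.65, limma adjusted p = 0.00335). Smyd1, a muscle methyltransferase, did not pass by its brightest probe set (0.79, limma adjusted p = 0.15) and passed by another (1.02, limma adjusted p = 0.00967). Fhl1, a LIM protein, was at -0.46 and did not pass (limma adjusted p = 0.0781). Both Myot and Hspb6 passed in male hearts in the same direction.

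Of the 20 skeletal muscle markers 2 rose and none fell, against 0.11% of all genes higher. Casq1, the calsequestrin of skeletal muscle, which binds calcium in the store, read 5.61, 5.93 and 5.55 in WT and 7.15, 7.45 and 7.01 in KO. This was a rise of 2.84-fold with no overlap (1.51, 95% interval 1.13 to 1.88, limma adjusted p = 0.000321), and it passed under every alternative tried. Mybpc2, the fast form of myosin binding protein C, rose by 0.55, a call lost without any 1 of pools 8 to 12. In each female group 9 of the 20 markers lay under the array median. All KO pools lay above all WT pools in 6 of the 20, against 5.69% of all genes, and below them in 1, against 6.56%. The summed level of the list ran from 11.97 to 12.01 in WT and from 12.07 to 12.10 in KO. Its median level was only 3.03 to 3.18 in WT and 3.02 to 3.20 in KO, so the sum rests on a few bright members. Because the list also shares Ckm with the ventricular list, the sum is no measure of skeletal fibres. The median difference of the list was 0.06. In male hearts that median was 0.52, or 0.06 without pool 4, and 3 markers rose with or without it, and the part of skeletal fibres in the Casq1 result was not tested. The fast heavy chain gene Myh2 read 3.22, 3.04 and 3.08 in WT and 3.44, 3.31 and 3.40 in KO, near the array median.

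Around Casq1, 1 of 42 measured genes of calcium handling rose, Casq1 itself, and 1 fell, against 0.11% of all genes higher and 0.368% lower. Casq2, the cardiac calsequestrin, was at 0.21, Ryr2, the release channel of the store, at 0.20, Atp2a2, the pump that refills it, at 0.03 (95% interval -0.12 to 0.19) and Pln, the brake on that pump, at 0.08. None of these 4 passed. The fall was in Sln, described with the atrial genes. Rgs2, which shortens signalling by G protein-coupled receptors, passed at -0.71 (limma adjusted p = 0.00622). It was the 1 call among 17 measured genes of adrenergic and muscarinic signalling, against 0.478% of all genes. Its mean over 4 probe sets gave -0.41 and did not pass.

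A group of 3 genes expressed mainly in atria was lower in female KO hearts. Myl7, the atrial regulatory light chain, read 11.56, 11.43 and 11.47 in WT and 11.05, 10.83 and 10.62 in KO. Sln, which encodes sarcolipin, an inhibitor of the calcium pump in atria, read 10.11, 9.98 and 9.86 in WT and 9.52, 9.15 and 9.16 in KO. Mybphl, a relative of myosin binding protein H found in atria, read 7.54, 7.56 and 7.44 in WT and 7.07, 6.59 and 6.79 in KO. In none of them did the groups overlap, and the differences were -0.65, -0.71 and -0.70 (limma adjusted p = 0.0159, 0.0225 and 0.0463).

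Other atrial genes divided. Of 30 measured genes of the atrial list 3 fell and none rose, and 21 differences were negative (median -0.06). Over all genes 0.368% fell and 51.9% of differences were negative. Myl4, the atrial essential light chain, read 10.57, 10.64 and 10.58 in WT and 10.33, 10.08 and 9.91 in KO and did not pass at -0.49 (limma adjusted p = 0.0994). Nppa, the atrial natriuretic peptide gene, overlapped fully, with 12.08, 11.99 and 12.05 against 12.21, 12.03 and 11.84 (-0.02, 95% interval -0.22 to 0.18). Nppb was at 0.18, Tbx5, a transcription factor of atria and left ventricle, at -0.46, and Dkk3 at -0.46, all short of the threshold. How much atrium each pool held is not given in the labels, and its part in these differences was not tested.

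Each atrial call was lost when any 1 of several pools was left out. Without WT pool 7 or 8 or KO pool 11 or 12 none of Myl7, Sln and Mybphl passed, though the differences stayed between -0.83 and -0.52 over all alternatives. Without pool 9 neither Myl7 nor Mybphl passed, and Mybphl also missed the threshold without male pool 1, 2 or 5, which enter through the shared variance. Without pool 10, 4 atrial genes passed. Male hearts gave 0.09, 0.09 and 0.17 for Myl7, Sln and Mybphl, and 0.02, -0.03 and 0.05 without pool 4. The female effect minus the male effect was -0.75, -0.79 and -0.86, and none of these differences passed the sex-by-genotype test (limma adjusted p = 0.986 for each, unadjusted p = 0.000302, 0.000501 and 0.000487). Without pool 4 these differences were -0.67, -0.67 and -0.74 (limma adjusted p = 0.943 for each).

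**Figure D3:**
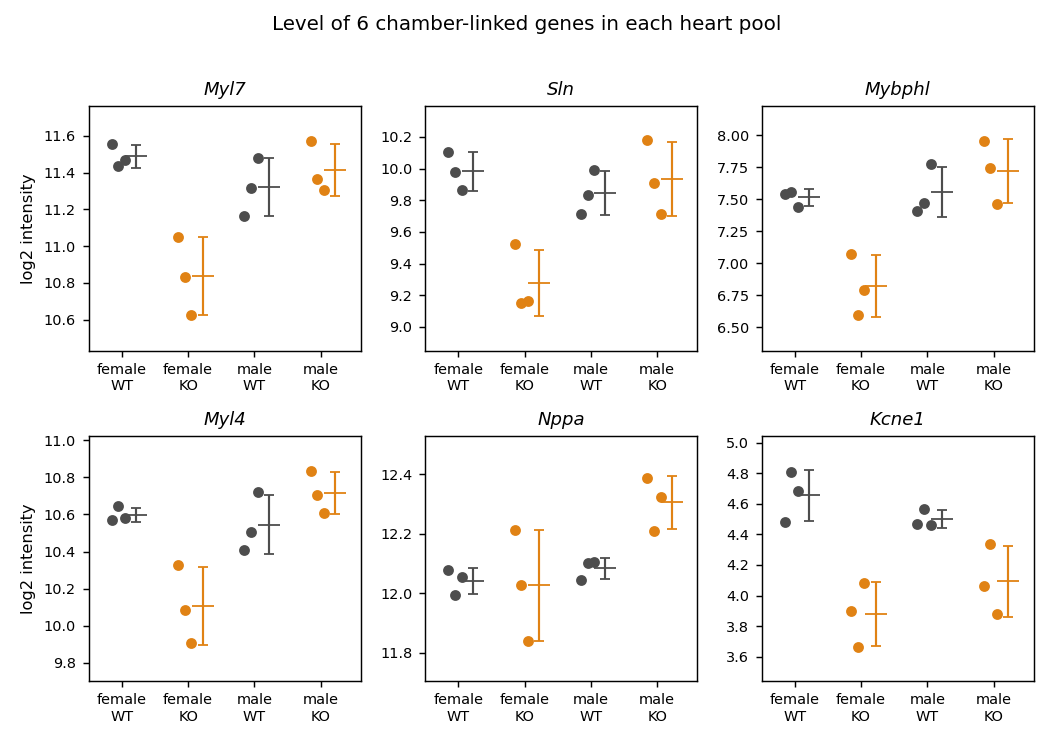
Log2 intensity of Myl7, Sln, Mybphl, Myl4, Nppa and Kcne1 in each heart pool of both sexes (points), with mean and SD of 3 pools, WT in grey and KO in orange and each panel on its own scale. Female KO pools lie below female WT pools for all but Nppa, and male KO and WT pools overlap for Myl7, Sln, Mybphl and Myl4.

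Of 130 measured ion channel genes 1 fell and none rose (median 0.01), a share of 0.769% that is near the 0.478% of all genes and so is no result about channels as a group. Kcne1, the small subunit that slows and enlarges the repolarising current carried by Kcnq1, read 4.48, 4.81 and 4.68 in WT and 3.90, 3.67 and 4.08 in KO. Its fall of 0.77 (95% interval -1.04 to -0.50, limma adjusted p = 0.00944) left no overlap. It missed the threshold without pool 8, without pool 11 or without pools 4 and 10 (limma adjusted p 0.0622 to 0.0812), and a dimmer second probe set gave -0.26. In male hearts Kcne1 did not pass, and it was at -0.39 there without pool 4 (limma adjusted p = 0.651). The pore gene Kcnq1 was at 0.03 in female hearts (95% interval -0.14 to 0.20).

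No other channel gene passed, including those of the main cardiac currents. Cacna1c, the L-type calcium channel, was at 0.03 (95% interval -0.18 to 0.23), and its accessory subunit gene Cacna2d1 at 0.43, with 7.59, 7.72 and 7.88 in WT and 8.20, 8.13 and 8.15 in KO (limma adjusted p = 0.0857). Hcn2, a pacemaker channel, read 3.55, 3.45 and 3.40 in WT and 3.77, 3.84 and 3.96 in KO (0.39, limma adjusted p = 0.0569). Kcnd2, a channel of the transient outward current, was at 0.47 with a wide interval (95% interval 0.11 to 0.84), while its partner gene Kcnip2 was at 0.03. Gja1, the main ventricular gap junction gene, was at 0.33 and Gja5, the atrial one, at -0.05, the latter near the array median. Only 76 of the 130 channel genes lay above the array median, so that changes in the others could hardly be seen. Hcn4 was not analysed here.

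**Figure D4:**
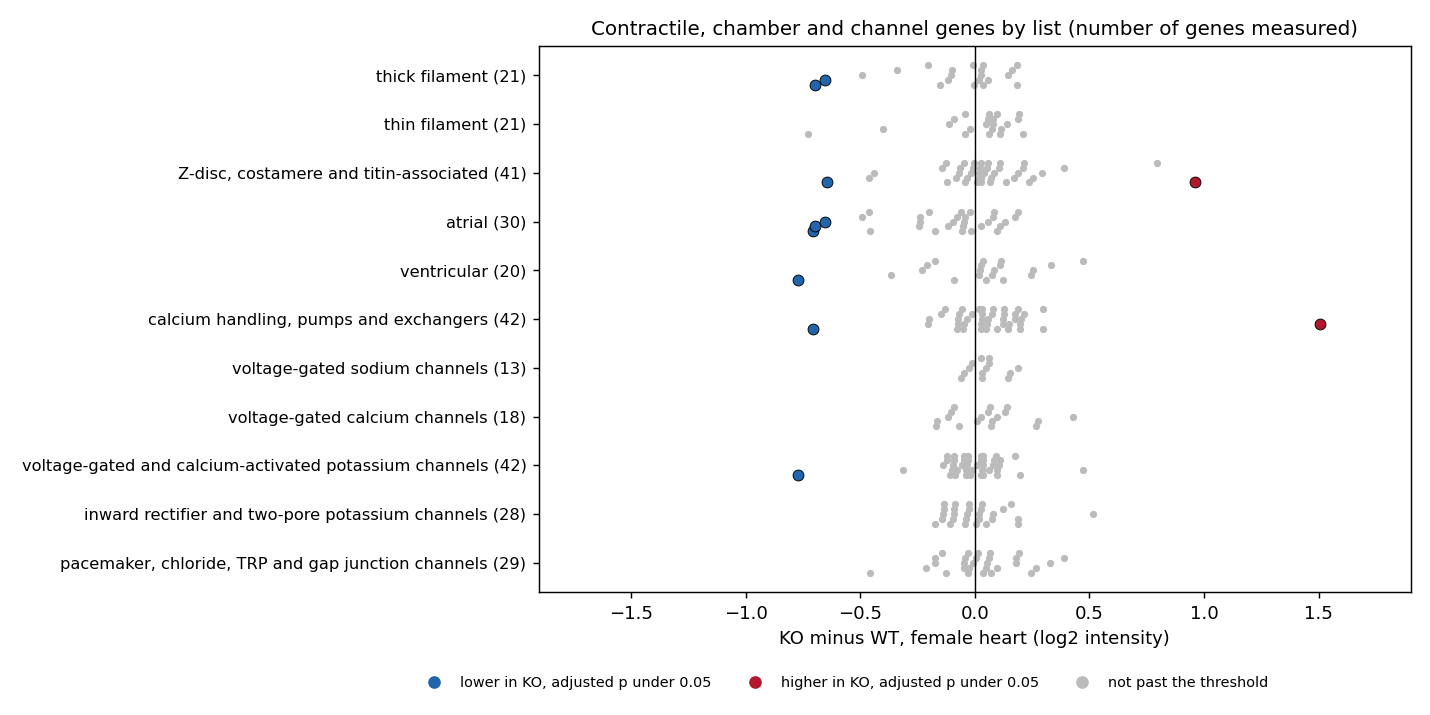
Difference between KO and WT female hearts (log2 intensity, horizontal axis) for every measured gene of 11 contractile, chamber, calcium and channel lists (rows, vertical scatter has no meaning), with coloured points for genes past a limma adjusted p of 0.05. A gene on several lists appears in each, and the coloured points are Myl7, Mybphl, Hspb6, Sln and Kcne1 below 0 and Myot and Casq1 above it.

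Of the 87 genes, 49 belonged to none of the lists, and these included most of the other strong changes. Among the falls were Plbd1, a lysosomal phospholipase-like protein, at -1.49, P3h4, a partner of collagen-modifying enzymes, at -1.20, and Tesc, a calcium-binding protein, at -1.17. Apbb1, an adaptor that binds the amyloid precursor protein, fell by 1.11 and Ephx2, which hydrolyses fatty acid epoxides, by 1.10. Among the rises, Btnl9, a butyrophilin-like gene, read 4.82, 5.003 and 4.86 in WT and 5.94, 6.22 and 6.49 in KO (1.32, limma adjusted p = 3.13e-05). Ndrg4, a gene of heart and nerve growth, read 8.08, 8.12 and 8.15 in WT and 9.45, 9.30 and 8.99 in KO (1.13, limma adjusted p = 2.24e-05). Both sets of KO pools lay clear of WT.

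Less secure rises were those of Bex1 at 1.19, Fam81a at 1.03, Gsdme at 0.75, Armcx4 at 0.73, Tmx1 at 0.68 and Tmprss13 at 0.66 (limma adjusted p 0.0159 to 0.0444). Each missed the threshold without pool 7 and without pool 10, among other settings. Bex1 varied most among them, with 4.998, 4.65 and 5.74 in KO pools against 3.77, 3.76 and 4.30 in WT.

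Male hearts showed most of the same changes. Of the 87 genes 82 had the same sign in males (94.3%, against 52.6% of all genes), and 56 also passed there, which is 64.4% of the female and 76.7% of the 73 male calls (0.401% of all genes). Without male pool 4, 83 of the 87 had the same sign and 50 also passed, of 67 male calls. The male calls were 15 higher (0.0824%) and 58 lower (0.319%). The median of the 67 falls was -0.77 in females and -0.74 in males. Opposite signs were seen for 5 genes, Myl7, Sln, Mybphl, Gsdme and Igfbp6, the last of which was singled out after its values were seen. No gene passed in opposite directions. The sex-by-genotype test gave no gene in limma, with 854 genes at an unadjusted p under 0.05, and none without pool 4, so no change is shown to be particular to female hearts.

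**Figure D5:**
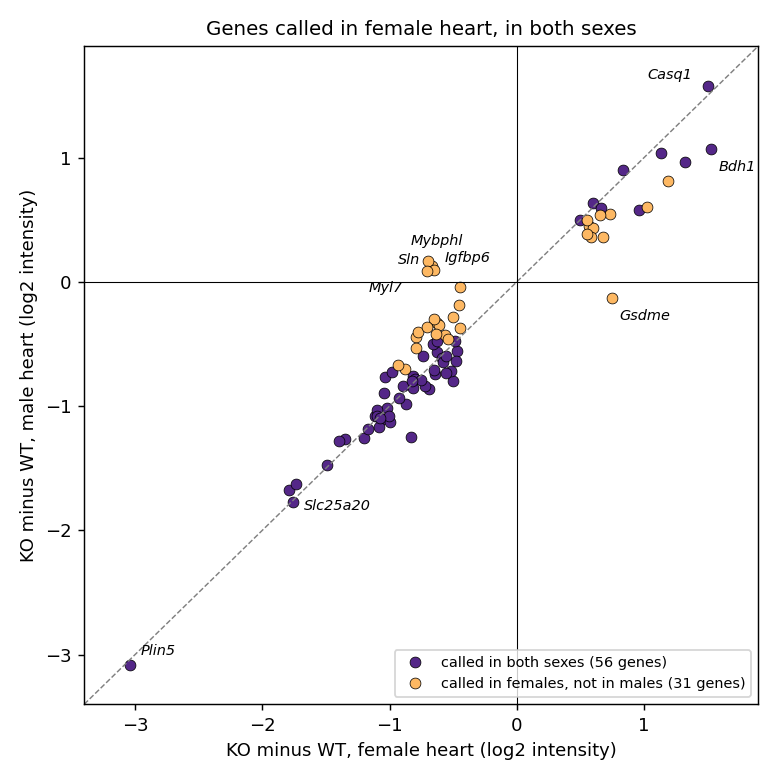
KO minus WT difference in female heart (horizontal axis) against male heart (vertical axis), both in log2 intensity, for the 87 genes that passed in female heart, with 56 that also passed in males in purple and 31 that did not in orange and a dashed line of equal values. Most points follow the line, and Myl7, Sln, Mybphl, Igfbp6 and Gsdme lie across 0 from it; the genes were chosen on the female values.

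The promoters of the 87 genes were searched for the receptor's response element, a direct repeat of hexamers 1 base apart. The window was the 250 bases before each gene's start in RefSeq (GRCm38.p6), on both strands, and 55 of 67 lower and 15 of 20 higher genes had a promoter in the table. Each pattern had a left and a right element with 1 free base between them, and N marks any base. The first pattern searched, with AGGNCA as both elements, was in 0 of the 55 lower and 0 of the 15 higher genes, and in 0.4% of all 27025 promoters. After that result 6 looser or altered patterns, overlapping in their matches, were tried, so that 7 were searched in all. A left GGNCA with a right AGGNCA was in 0.81% of all promoters, a left AGGNNA with a right AGGNCA in 0.914%, a left GGNNA with a right AGGTCA in 0.488% and a left NGGNCA with a right AGNTCA in 0.533%. These 4 matched none of the lower or higher genes either. A right AGNNCA, after a left GGNCA (2.28%) or a left AGGTCA (0.281%), each time matched 1 lower gene, Cat, and no higher gene. Over all 7 patterns 1 of 55 lower genes had a match (1.82%), against 2.93% of all promoters, so the share was no higher than in other genes.

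The match in Cat is printed because it was the only one found in 7 searches, at chr2:103485336-103485365, 5′ to 3′ on the gene's strand (minus), with the match of the left GGNCA, free base and right AGNNCA in capitals and starting 203 bases before the gene's start.
Cat: actctcagaGGTCAGAGAACAccagcaggg
It is a match of letters and no shown binding site, and genes without a match may hold elements outside this window.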

How the data were processed

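RNA of heart pools was measured on Affymetrix mouse arrays. RMA was run by the authors, per the submitters' processing notes, which leave its version unstated. The table deposited by the authors holds log2 intensities. It has 45101 probe sets, of which 64 controls were left out. A probe table gave 34945 of the other 45037 a single gene, 932 several genes and 9160 none, and only single-gene probe sets were used for gene results. Each of 18193 genes was represented by its probe set with the highest mean over the 12 heart arrays, and 1394 of these can cross-hybridize (_s_at or _x_at). Another probe set passed in 8 genes whose representative did not. No filter on dim genes was applied.

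The 12 heart arrays (4 groups of 3 pools) were fitted in R 4.3.3 by limma 3.58.1 (a mean per group, lmFit, eBayes, two-sided, Benjamini-Hochberg over 45037 probe sets, threshold 0.05). Contrasts were KO minus WT in females, the same in males, and their difference. The comparison and the 42 gene lists were chosen with earlier results of these data known. Genes named were the 12 largest rises and falls among those that passed with pools on 1 side, up to 6 members of each list, a fixed set of heart genes, and markers. Clone names were passed over. Alternatives were the compared arrays alone, all 24 arrays, a trended and robust variance, array weights, quantile normalization, median centring, a filter on dim probe sets, other choices of probe set, and each pool left out. A further alternative, without pools 4 and 10, was chosen once their values were known. In simulated data, genes in female heart were shifted by 0.5, 1 and 2 on the log2 scale, and 52.2%, 95.5% and 100% were recovered. Of 167 called genes 2 were unshifted. Shifted genes were drawn only from those above the median level of all probe sets, and the noise was independent and normal. These rates therefore do not cover dim genes.

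The 7 promoter patterns were not planned, and 6 of them were chosen after the first had matched no gene that passed.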

Additional observations from a re-analysis of the deposited data

How the results depend on the processing

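Of the 87 genes called in female heart, 46 passed under all 24 alternatives, 41 missed the threshold under at least 1, and none changed sign. The female count ran from 57 to 88 with 1 pool left out, lowest without pool 7, and the male count from 58 to 72. The rises in females numbered 13 with the compared arrays alone, 31 with a trended and robust variance and 6 without pools 4 and 10, and ran from 7 to 21 with 1 pool left out. In males they numbered 6, 24 and 9 with the compared arrays alone, all 24 arrays and without pools 4 and 10, and ran from 7 to 20 with 1 pool left out. The alternative without pools 4 and 10 was chosen after seeing the data. It called 58 genes, of which 57 were among the 87, and 10.3% of them were rises, against 23% otherwise. The cause of these shifts was not tested. The sex-by-genotype count in limma was 0 with each pool left out. No paired analysis was possible because the compared groups share no pool numbers. The median 95% interval of a gene was 0.218 wide on each side, which is not the limit of a call. The smallest difference of a gene that passed in female heart was 0.444 in size. Of simulated shifts of 0.5, 52.2% were recovered, so genes that did not pass may still differ. Signal near the array median limits what dim genes can show.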

Other observations

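Stress transcripts had mostly negative differences in female KO hearts, without any gene past the threshold in limma. Of 19 immediate early and stress genes 14 had negative differences (median -0.20), against 51.9% of all genes. Nr4a1, an early response receptor, was at -0.47 and Fos at -0.60. With 0.478% of all genes passing, a count of 0 among these 19 does not set them apart. In male hearts 15 of the 19 had positive differences (median 0.25), against 51.2% of all genes, and 14 without male pool 4 (median 0.28). The metallothionein genes Mt1 and Mt2, which bind zinc and copper, were at -0.77 and -0.94 in females (limma adjusted p = 0.0862 and 0.254). Tagln, a smooth muscle marker, read 6.66, 6.53 and 6.57 in WT and 6.25, 6.02 and 5.91 in KO (-0.53, limma adjusted p = 0.0907). It had the lowest difference of 12 smooth muscle and pericyte markers, of which 7 were negative and 5 positive, up to 0.22 (median -0.06). The summed level of these markers, which rests mostly on the brightest of them, ran from 11.43 to 11.52 in WT and from 11.30 to 11.34 in KO. None of 18 circadian clock genes passed in limma, and their median was -0.06. With 0.478% of all genes passing, a count of 0 among 18 does not set them apart.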
